A study of Mus musculus with 246 samples.

Results

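The medial prefrontal cortex (mPFC) and the anterior cingulate cortex (ACC) are neighbouring parts of the frontal cortex, and both were punched from the same animals for bulk RNA sequencing. The comparison described here used every mPFC and every ACC library of the 21 animals that were killed without a social encounter, which gave 42 of the 246 libraries of the series, 1 mPFC and 1 ACC library per animal. All animals were adult males of the outbred CD1 strain whose dams had received a slow-release gel under the skin. Ctrl_Veh animals (7) were raised under standard conditions by dams given an empty gel. ELA_Veh animals (7) were raised with limited bedding and nesting material in the first postnatal days, a model of early life adversity (ELA), by dams given the same empty gel. ELA_SAFit2 animals (7) had the same limited material, and the gel of their dams carried SAFit2, an inhibitor of the stress-related co-chaperone FKBP51, which reached the pups through the milk. Litters were not used here. With each animal as its own block, the error is the spread of the mPFC minus ACC difference over animals. By the study's methods the mPFC punches took prelimbic and infralimbic cortex, the ACC punches covered an overlapping stretch along the front-to-back axis, and tissue of both hemispheres was pooled.

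Depth was similar in the 2 regions, from 23264116 to 39360386 counts assigned to genes per library. The numbers in the library names of the 2 regions do not overlap, so that region and library series cannot be told apart. Excitatory cortical neuron genes were abundant in every library: Slc17a7, the vesicular glutamate transporter of cortical projection neurons, was never below 1215 CPM (counts scaled to a common library size) in mPFC or 1512 CPM in ACC. Some libraries stood apart in genes that mark neighbouring tissue, and the source of that RNA was not tested. The mean level of 10 olfactory bulb genes, on a log2(CPM + 0.1) scale, was above 0.5 in 8 mPFC and 4 ACC libraries (9 animals), with none between 0.29 and 0.94. The mean level of 13 striatal genes was above 3 in 7 mPFC and 6 ACC libraries (9 animals), with none between 2.88 and 3.30. As a check of the labels, 292 genes that differed by at least 0.5 on the log2 scale between mPFC and ACC of the 20 animals killed after a social encounter were read in the present 21. The mean difference, signed by the direction in the other animals, was above 0 in 21 of 21 animals, at 0.12 in ELA_Veh animal 99 and between 0.48 and 0.93 in the others, so the labelled direction held in every animal and was least marked in animal 99.

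Cortical areas share most of their cell classes, and they differ in which layers are distinct and how thick these are. They also differ in the density of myelinated fibres and in graded expression of transcription factors, adhesion molecules and receptors in their projection neurons. The ACC takes part in pain, attention and the monitoring of outcomes and lies above the fibres of the cingulum and the corpus callosum. The prelimbic and infralimbic cortex take part in the control of fear, stress responses and social behaviour and lie near the anterior olfactory structures and the striatum.

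Of 15863 protein-coding genes tested within animals, 2829 were higher in mPFC (17.8%) and 2957 were higher in ACC (18.6%) at an adjusted p under 0.05 (edgeR quasi-likelihood test with the animal as a block, Benjamini-Hochberg adjustment). Most of these differences were small. The median size over the called genes was 0.13 on the log2 scale, 90.98% lay under 1.5-fold, and the median over all genes tested was 0.00189. At least 2-fold differences were called for 89 genes higher in mPFC (0.561%) and 89 genes higher in ACC (0.561%). When only genes with at least 1 CPM in 21 libraries were tested, 16 and 38 such differences were called. A called gene was higher in mPFC in every one of the 21 animals in 186 cases (1.17%), and higher in ACC in every animal in 166 cases (1.05%). For only 12 genes (0.0756%) did the 21 mPFC libraries and the 21 ACC libraries not overlap at all, and for all other called genes at least 1 library of one region reached into the range of the other.

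**Figure D1:**
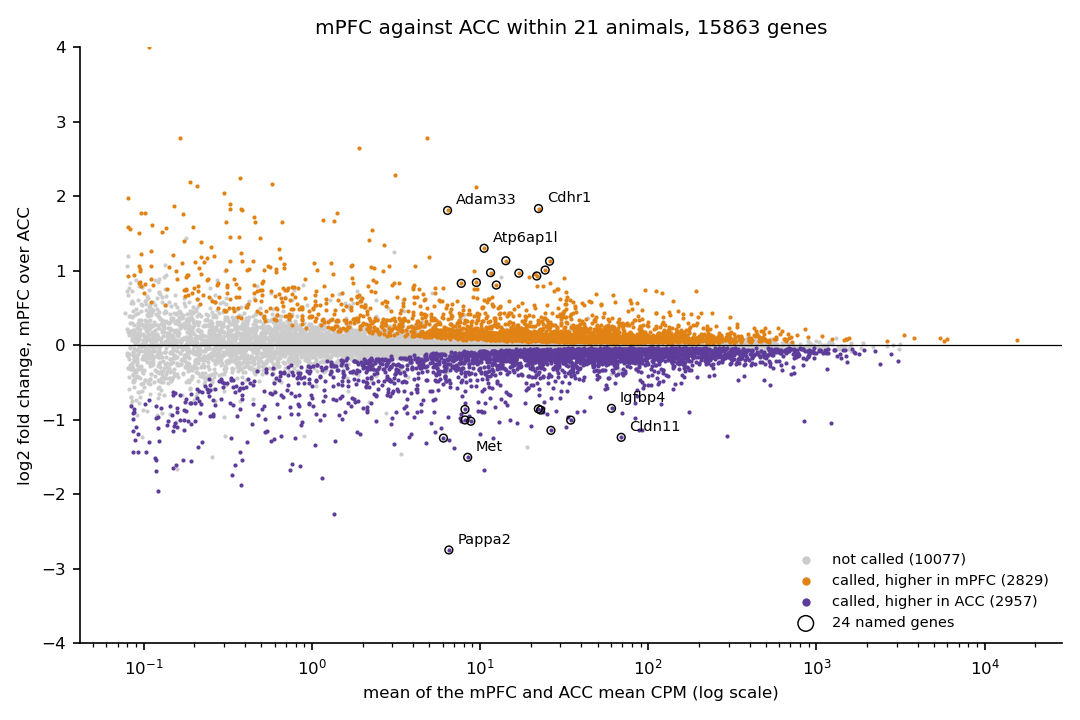
Each point is 1 of 15863 genes, with the mean CPM of the 2 regions on a log axis against the log2 fold change of mPFC over ACC from the fit within 21 animals, and 2 genes beyond 4 on the log2 scale are not shown. Called genes lie on both sides in similar number (2829 and 2957), and circles mark the 24 genes named by rule, of which Pappa2 (-2.75) and Cdhr1 (1.83) lie farthest from 0.

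The 12 genes of largest difference on each side were taken from the called genes with a mean of at least 5 CPM and the same direction in 21 of 21 animals (159 such genes were higher in mPFC and 150 in ACC), so their size and direction are given as a description. Those higher in mPFC were Cdhr1, Adam33, Atp6ap1l, Gpx3, Itga4, Glra3, Oxtr, Tox3, Abi3bp, Tekt5, Arhgap6 and Neurod1. In the following sentences triples of CPM are the lowest, the median and the highest of the 21 libraries of a region, and fold changes are from the same edgeR fit. Itga4, the α4 chain of the integrins that bind fibronectin and VCAM1, stood at 22.9, 35.1 and 47.7 CPM in mPFC and at 9.54, 16.9 and 19.9 CPM in ACC. Every mPFC library lay above every ACC library, and the log2 fold change was 1.13 ± 0.07 (SE), adjusted p = 1.47e-11. Glra3, which encodes the α3 subunit of the glycine-gated chloride channel, gave 23.4, 32.6 and 44.4 CPM in mPFC and 10.2, 16.6 and 20.6 CPM in ACC, again without overlap, with a log2 fold change of 1.01 ± 0.06 (SE), adjusted p = 2.06e-11. The third gene without overlap in this set was Tox3, a high-mobility-group nuclear protein, at 15.8, 21.96 and 29.1 CPM against 8.61, 11.5 and 13.4 CPM (0.97 ± 0.05 (SE), adjusted p = 1.39e-12).

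Oxtr, the receptor of oxytocin, was higher in mPFC in all animals but its regions overlapped, and its values were spread more widely in mPFC than in ACC. It stood at 8.77, 12.6 and 32.4 CPM in mPFC and 5.91, 7.45 and 10.4 CPM in ACC, a log2 fold change of 0.97 ± 0.11 (SE), adjusted p = 2.02e-07. The 3 highest mPFC libraries came from 1 animal of each condition (animals 1, 43 and 15), and these were also high in mPFC for Abi3bp, at 51.6, 58.8 and 138.8 CPM. Gpx3, a secreted glutathione peroxidase, stood at 10.5, 19.99 and 28.1 CPM in mPFC against 5.06, 9.03 and 12.6 CPM in ACC (1.13 ± 0.05 (SE), adjusted p = 1.49e-13). Neurod1, a basic helix-loop-helix factor of neuronal differentiation, was 1.75-fold higher in mPFC, with medians of 15.1 and 9.67 CPM. Adam33, a membrane-anchored metalloproteinase, showed a log2 fold change of 1.81 ± 0.15 from low levels, with medians of 9.34 CPM in mPFC and 2.36 CPM in ACC. The remaining members were Atp6ap1l at 1.3 ± 0.06, Tekt5 (a tektin of ciliary microtubules) at 0.84 ± 0.07 and Arhgap6 at 0.83 ± 0.10. None of these 3 separated the libraries fully. Beyond the genes named by size, 7 further genes were higher in mPFC without overlap, chosen here after their values were seen: Crb1, Brinp3, Tafa2, Nrip1, Cntnap5a, Epha5 and Ptbp3. Epha5, a receptor of ephrin guidance cues, was separated by a small difference, with 159.5, 182 and 202 CPM in mPFC and 119, 143 and 153 CPM in ACC, a 1.29-fold difference.

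For Cdhr1 and Abi3bp, a few libraries stood far above the rest. Cdhr1, a cadherin-related gene that is strong in mitral and tufted cells of the olfactory bulb, gave 5.03, 14.8 and 129 CPM in mPFC and 3.303, 4.49 and 80.5 CPM in ACC. Its log2 fold change of 1.83 ± 0.23 (SE), adjusted p = 9.82e-07 was 1.37 (adjusted p = 8.24e-08) in the 12 animals left after leaving out those with a high olfactory list level (above 0.5 in either cortex), which is a smaller but still called difference. Cdhr1 is itself a gene of that list, so the choice of animals depended in part on its own values. Abi3bp, an extracellular matrix protein, ranged from 12.2 to 139 CPM in mPFC around a median of 15.2, and from 9.29 to 46.5 CPM in ACC around 11.1. Its log2 fold change fell from 0.93 to 0.58 without those animals (adjusted p = 0.0114). The log2 fold changes of all other genes of the set, Cdhr1 included, moved by less than 1.5 times when the same animals were left out.

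The 12 genes higher in ACC were Pappa2, Met, Vwa5b1, Cldn11, Mog, Galnt6, Myrf, Onecut2, Lpar1, Prr5l, Adra1b and Igfbp4. Pappa2, a secreted protease that cleaves insulin-like growth factor binding proteins, had the largest difference, with 0.539, 1.48 and 5.999 CPM in mPFC and 4.498, 10.6 and 18.6 CPM in ACC. The highest mPFC value came from ELA_Veh animal 99 and lay above the lowest ACC value. The next highest mPFC value was 4.401 CPM (ELA_Veh animal 13), below every ACC value. The log2 fold change of Pappa2 was -2.75 ± 0.19 (SE), adjusted p = 1.08e-10 (edgeR). Igfbp4, itself a binding protein of insulin-like growth factors, was higher in ACC as well, at 31.4, 42.04 and 59.05 CPM in mPFC against 51.3, 75.8 and 90.3 CPM (-0.85 ± 0.04 (SE), adjusted p = 3.46e-13). Met, the receptor of hepatocyte growth factor, reached 2.78, 3.94 and 16.02 CPM in mPFC and 7.27, 11.3 and 28.5 CPM in ACC, a log2 fold change of -1.50 ± 0.08 (SE), adjusted p = 1.76e-12. The overlap for Met rested on ELA_Veh animal 99, whose 2 libraries held the highest value of each region (16.0 CPM in mPFC and 28.5 CPM in ACC). In all other animals Met stayed at or below 5.58 CPM in mPFC and at or above 7.27 CPM in ACC.

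Adra1b, the α1B adrenergic receptor, stood at 9.803, 15.2 and 27.4 CPM in mPFC and 19.5, 27.6 and 36.6 CPM in ACC, with a log2 fold change of -0.85 ± 0.05 (SE), adjusted p = 8.11e-12 (edgeR). Onecut2, a homeobox transcription factor, rose from a median of 5.06 CPM in mPFC to 10.8 CPM in ACC (-1.003 ± 0.10). Vwa5b1 was 2.37-fold higher in ACC, with 1 mPFC library (ELA_Veh animal 99) at 15.6 CPM against a median of 2.85. The others belong to oligodendrocytes or moved with them: Cldn11, the claudin of myelin tight junctions, Mog, a glycoprotein of the outer myelin surface, Myrf, the transcription factor that drives myelin genes, and Galnt6, Lpar1 and Prr5l. Cldn11 ran from 22.8 to 90.2 CPM in mPFC and from 28.1 to 216 CPM in ACC, so that regions overlapped broadly although each animal had more in its ACC. The 2 genes higher in ACC without any overlap were small in level or in size and were noticed after the values were seen: Diaph3, a formin that nucleates actin filaments, at 1.098, 1.68 and 2.36 CPM against 3.002, 4.42 and 6.17 CPM, and Dpysl2 (CRMP2), a microtubule-binding protein of growing axons, which was 1.19-fold higher.

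**Figure D2:**
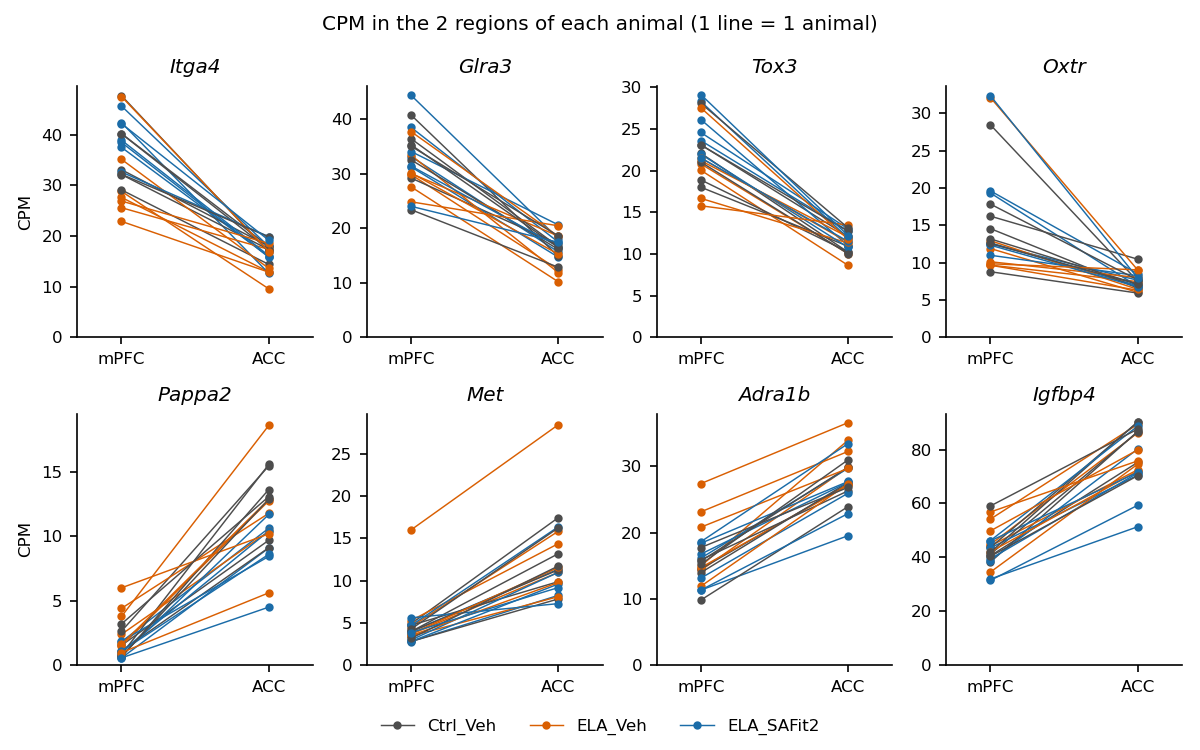
CPM of 8 of the named genes on linear axes from 0, with 1 line per animal joining its mPFC and its ACC library and the colour giving the condition. All lines of the upper row fall towards ACC and all lines of the lower row rise, as the rule for naming genes required. The single high Met line is ELA_Veh animal 99 (16.0 and 28.5 CPM).

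The windows before the start sites of a pair of genes from each side are given as examples, together with the E-box CANNTG, the recognition sequence of basic helix-loop-helix factors such as Neurod1. These 4 are among the named genes that kept their call both with the oligodendrocyte covariate described in the next paragraphs and without the animals of high olfactory list level. Other named genes did so too, and the choice among them followed no further rule. The windows are 250 bases from RefSeq on GRCm38.p6, printed 5′ to 3′ on the strand of the gene up to the base before the start, with each E-box in capitals on either strand.
Itga4 (chr2:79255176-79255425, + strand): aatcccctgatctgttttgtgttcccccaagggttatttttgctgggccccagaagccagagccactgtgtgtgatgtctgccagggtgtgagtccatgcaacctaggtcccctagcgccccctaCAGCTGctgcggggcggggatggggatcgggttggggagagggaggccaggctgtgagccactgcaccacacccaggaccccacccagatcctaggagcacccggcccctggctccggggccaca
Oxtr (chr6:112489826-112490075, - strand): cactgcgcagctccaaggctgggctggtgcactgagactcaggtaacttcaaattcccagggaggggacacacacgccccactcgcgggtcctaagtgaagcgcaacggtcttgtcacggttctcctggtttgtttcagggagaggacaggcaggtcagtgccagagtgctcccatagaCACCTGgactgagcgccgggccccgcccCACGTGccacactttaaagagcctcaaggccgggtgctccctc
Pappa2 (chr1:158958176-158958425, - strand): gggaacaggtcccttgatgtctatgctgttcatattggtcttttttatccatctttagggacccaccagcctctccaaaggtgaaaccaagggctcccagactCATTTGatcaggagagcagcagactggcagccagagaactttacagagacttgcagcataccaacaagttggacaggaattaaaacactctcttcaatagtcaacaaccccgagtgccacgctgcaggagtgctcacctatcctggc
Met (chr6:17463707-17463956, + strand): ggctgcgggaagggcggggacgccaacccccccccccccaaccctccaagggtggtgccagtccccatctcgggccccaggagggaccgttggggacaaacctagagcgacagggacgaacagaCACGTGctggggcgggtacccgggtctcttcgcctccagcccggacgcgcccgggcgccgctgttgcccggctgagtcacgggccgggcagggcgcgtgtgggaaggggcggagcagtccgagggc
Itga4, Pappa2 and Met each hold 1 E-box and Oxtr holds 2. The motif is common: it occurs in 66.0% of 27025 windows and in 58.4% of the 12309 windows of genes tested here. Of the named genes, 9 of 12 on the mPFC side and 10 of 12 on the ACC side had a window, and 8 and 6 of these held it.

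Oligodendrocytes wrap axons in myelin, and their genes differed together between the regions. All 14 of 14 oligodendrocyte and myelin genes were higher in ACC, against 18.6% of all genes, with a median log2 fold change of -1.09 where the median of all genes tested was 0.00189. In bulk tissue, fewer cells of a type and less RNA per cell cannot be told apart. Mbp, the basic protein that compacts the myelin sheath, had a median of 781 CPM in mPFC and 1529 CPM in ACC, and Mobp reached -1.22 ± 0.14 on the log2 scale (adjusted p = 2.26e-07). Opalin, a membrane protein of myelin paranodes, gave 3.41, 5.59 and 17.9 CPM in mPFC against 3.204, 15.1 and 39.7 CPM in ACC. The summed level of the list ranged from 885 to 4199 CPM in mPFC and from 965 to 8892 CPM in ACC. Its mean within-animal difference was -1.06 ± 0.57 (SD, n = 21), with 20 of 21 animals higher in ACC and ELA_SAFit2 animal 15 at 0.07. The list kept 14 of 14 calls without the animals of high olfactory list level, where 11.4% of all genes were called higher in mPFC and 13.2% higher in ACC. It also kept them without those of high striatal list level (above 3) and in the animals after a social encounter.

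Precursor genes followed in part. Enpp6, a marker of newly forming oligodendrocytes, was lower in mPFC with a log2 fold change of -1.01 ± 0.13 (SE), adjusted p = 2.47e-06, and Olig1 and Olig2, transcription factors of the whole lineage, had values of -0.46 and -0.36. Pdgfra, the receptor that defines precursor cells, was instead slightly higher in mPFC (0.09 ± 0.03, adjusted p = 0.0259), and the other 3 of 7 precursor genes were not called. With the oligodendrocyte list level of each library added to the fit as a covariate, none of the 14 genes, from which that level is made, was called, and of the named genes 11 of 12 on the mPFC side and 5 of 12 on the ACC side were still called. Pappa2, Met, Vwa5b1, Adra1b and Igfbp4 kept their call there, with log2 fold changes of -1.93, -1.45, -1.14, -0.93 and -0.77. Cldn11, Mog, Galnt6, Myrf, Lpar1 and Prr5l came to between -0.12 and -0.00367, Onecut2 to -0.56 (adjusted p = 0.0833) and Cdhr1 to 0.69 (adjusted p = 0.30). Over all genes, 610 were then called higher in mPFC (3.85%) and 592 higher in ACC (3.73%). The covariate itself differs between regions, and over the 5786 called genes the median SE rose 2.14-fold while the median size was 0.959 times that of the fit without it.

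Genes of olfactory bulb neurons were called higher in mPFC for 9 of 10, against 17.8% of all genes, with a median log2 fold change of 1.35. Single libraries carried high values. Eomes, a T-box factor of mitral and tufted cells, had a median of 0.2696 CPM in mPFC and 0.113 CPM in ACC, with maxima of 24.8 and 14.3 CPM and 0 in some libraries of each region. The summed level of the list ran from 11.6 to 293 CPM in mPFC and from 10.8 to 184 CPM in ACC. In the 12 animals without a high olfactory list level, 1 of the 10 genes, Cdhr1, remained called. These animals were chosen by the level of the same 10 genes, so a fall in calls was largely set by the choice. Striatal genes also varied widely between libraries, and 1 of 13 was called, Ppp1r1b (DARPP-32), at -0.34 ± 0.13 (adjusted p = 0.0376), and 12 of 21 animals had the higher list level in ACC. The summed striatal level ran from 172 to 941 CPM in mPFC and from 189 to 1081 CPM in ACC. Drd2, a defining receptor of striatal neurons, had medians of 1.75 CPM in mPFC and 2.52 CPM in ACC against 140.4 CPM in the nucleus accumbens when the libraries of all 6 regions were scaled together. All 24 named genes were still called both without the animals of high olfactory list level and without those of high striatal list level. Their direction was set by the rule that chose them.

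**Figure D3:**
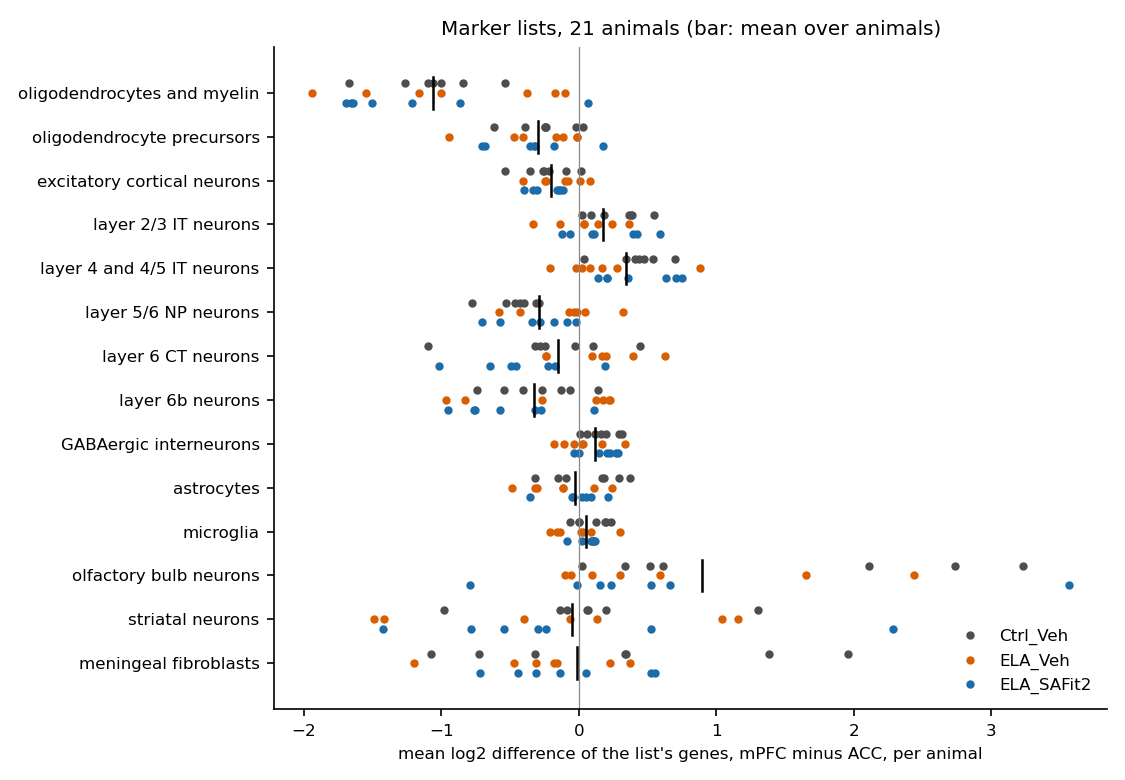
Each point is 1 animal's mean log2 difference between mPFC and ACC over the genes of a marker list, coloured by condition, with a black bar at the mean of 21 animals. The oligodendrocyte list lies below 0 in 20 of 21 animals, and the olfactory bulb list reaches 3.57 in 1 animal.

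General markers of excitatory cortical neurons were called lower in mPFC for 7 of 8 genes, against 18.6% of all genes, with a median log2 fold change of -0.19. The sizes were small: Neurod6, a differentiation factor of pyramidal neurons, showed -0.40 ± 0.06 (SE), adjusted p = 8.84e-06, and Slc17a7 showed -0.22 ± 0.03. The oligodendrocyte list moved in the same direction. With it as a covariate 2 of the 8 were called higher in ACC (3.73% over all genes), and Slc17a7 was the only one of the 7 that kept its call. Without the animals of high olfactory list level 4 of 8 were called (13.2% over all genes). Of 10 genes of layer 2/3 neurons, 6 were higher in mPFC and 1 was higher in ACC (17.8% and 18.6% over all genes), with a median of 0.20. Calb1, the calcium buffer calbindin, led them with 96.1, 145 and 232 CPM in mPFC and 56.4, 91.7 and 151 CPM in ACC (0.71 ± 0.08 (SE), adjusted p = 2.32e-07), followed by Otof at 0.45 and Rasgrf2 at 0.42. Lhx2, a LIM homeobox factor of cortical identity, went the other way in 21 of 21 animals (-0.45 ± 0.03 (SE), adjusted p = 1.12e-10). Genes of layer 4 and layer 4/5 neurons were higher in mPFC for 5 of 7 and lower for 1. The name of this list does not show that either cortex has a distinct layer 4. Rorb, a nuclear receptor of the list, stood at 28.96, 36.7 and 49.6 CPM against 17.4, 27.01 and 36.1 CPM (0.49 ± 0.06). Scnn1a, a subunit of the epithelial sodium channel, showed 1.08 ± 0.13 at median levels of 1.96 and 0.996 CPM. The regions overlapped for all of these. With the oligodendrocyte covariate the 2 lists had 0 and 1 genes called higher in mPFC (3.85% over all genes), and without the animals of high olfactory list level they had 3 and 2 (11.4% over all genes).

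Near-projecting neurons of layers 5 and 6 had 3 of 5 genes higher in ACC (18.6% over all genes) and none higher in mPFC, led by Lypd1, a modulator of nicotinic receptors, at 49.3, 86.7 and 119 CPM in mPFC and 99.1, 151 and 178 CPM in ACC (-0.79 ± 0.07 (SE), adjusted p = 2.08e-08). Lypd1 was lower in mPFC in 21 of 21 animals. The list had 1 of 5 genes called higher in ACC with the oligodendrocyte covariate (3.73% over all genes), and 1 of 5 without the animals of high olfactory list level (13.2% over all genes). Corticothalamic neurons of layer 6 had 2 of 7 genes higher in ACC, Hs3st4 (-0.34) and Tle4 (-0.21), neither of which was called without the animals of high olfactory list level. In layer 6b, the deepest sheet next to the white matter, Ccn2 and Cplx3 were higher in ACC (-0.92 ± 0.15 and -0.72 ± 0.13), and Moxd1 was higher in mPFC (0.32 ± 0.04). Layer 5 markers had no common direction. Among intratelencephalic layer 5 genes Deptor, an inhibitor within the mTOR pathway, was higher in ACC (-0.69 ± 0.08 (SE), adjusted p = 2.76e-07) and Tcerg1l was higher in mPFC in every animal (0.60 ± 0.06 (SE), adjusted p = 2.46e-08). With the oligodendrocyte covariate, Lypd1, Deptor and Moxd1 were still called, and Ccn2 and Cplx3 were at -0.14 and -0.19 and were not. Claustrum-type and layer 6 genes were mixed (3 higher in mPFC, 1 in ACC of 8 tested).

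Inhibitory interneurons, which control cortical output locally, had 12 of 28 genes higher in mPFC and 5 higher in ACC (17.8% and 18.6% over all genes), with a median log2 fold change of 0.07. Calb2, which encodes the calcium buffer calretinin, and Ndnf, a marker of layer 1 neurogliaform cells, had the largest values, at 0.96 ± 0.17 and 0.90 ± 0.20. Calb2 is also strong in the olfactory bulb, and in the 12 animals without a high olfactory list level its value was 0.59 (adjusted p = 3.15e-05), with Ndnf at 0.74 (adjusted p = 0.0639). The list then had 4 genes called in mPFC and 3 in ACC (11.4% and 13.2% over all genes). With the oligodendrocyte covariate 0 were called in mPFC and 1, Cck, in ACC (3.85% and 3.73% over all genes), so that Calb2, Ndnf, Reln and Gad1 lost their call there. Reln, a secreted guidance protein of superficial cells, was at 120.5, 142 and 226 CPM in mPFC and 79.05, 109 and 183 CPM in ACC (0.40 ± 0.05 (SE), adjusted p = 2.12e-06). Cck, a peptide of basket cells and of pyramidal neurons, was lower in mPFC (-0.30 ± 0.05 (SE), adjusted p = 2.27e-05). Gad1, the GABA-synthesising enzyme of all interneurons, and the class markers Sst and Vip gave 0.23, -0.05 and 0.02 with adjusted p of 0.00391, 0.39 and 0.83, and Pvalb, the marker of the parvalbumin class, gave -0.14 (adjusted p = 0.0368).

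Transcription factors that pattern the cortex were called in both directions, 11 of 38 higher in mPFC and 10 higher in ACC (17.8% and 18.6% over all genes), with a median of 0.01. Bhlhe22, a basic helix-loop-helix repressor that shapes area identity, had 29.7, 38.3 and 55.4 CPM in mPFC and 16.9, 26.1 and 31.3 CPM in ACC, higher in mPFC in 21 of 21 animals (0.61 ± 0.05 (SE), adjusted p = 1.21e-09). Meis2, a homeobox factor, was also higher in mPFC in every animal (0.44 ± 0.04). Satb1, a chromatin organiser of layer 5 and of interneurons, was lower in mPFC (-0.51 ± 0.06 (SE), adjusted p = 1.55e-07), as were Otx1 (-0.37) and Tbr1 (-0.33). With the oligodendrocyte covariate 2 and 2 of the list were called (3.85% and 3.73% over all genes), Bhlhe22, Meis2, Satb1 and Lhx2. The retinoic acid pathway had 1 of 18 genes higher in mPFC and 3 higher in ACC, no more than the share over all genes. Aldh1a3, a synthesising enzyme, was 2.09-fold higher in ACC in 21 of 21 animals, at 0.3795, 1.89 and 3.42 CPM in mPFC and 1.84, 4.01 and 5.796 CPM in ACC (-1.06 ± 0.13 (SE), adjusted p = 8.48e-07). The receptor Rara followed it (-0.36 ± 0.04).

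Axon guidance molecules were called in number: 19 of 70 were higher in mPFC (17.8% over all genes) and 25 were higher in ACC (18.6% over all genes), with a median of -0.03. Nrp2, a receptor of class 3 semaphorins, stood at 36.2, 56.6 and 96.01 CPM in mPFC and 27.4, 36.9 and 46.1 CPM in ACC (0.69 ± 0.06 (SE), adjusted p = 3.03e-09). One of the secreted semaphorins, Sema3a, had the same direction, with 23.1, 29.02 and 37.4 CPM against 14.3, 21.1 and 25.8 CPM (0.55 ± 0.04 (SE), adjusted p = 2.02e-10). Both were higher in mPFC in 21 of 21 animals. The netrin receptor Unc5d (0.58 ± 0.06), the ephrin receptor Epha6 (0.56 ± 0.08) and the laminin-related Ntn4 (0.52 ± 0.05) were on the same side. Higher in ACC were the ephrin ligand Efna5 (-0.41 ± 0.04 (SE), adjusted p = 1.16e-08) and the membrane-anchored Sema7a (-0.41 ± 0.04). Plxnb3 and Unc5b were higher in ACC too, at -0.78 and -0.67, and their values were 0.16 and 0.07 with the oligodendrocyte covariate. That fit called 12 genes of the family in mPFC and 8 in ACC (3.85% and 3.73% over all genes), and Nrp2, Sema3a, Unc5d, Epha6, Efna5 and Sema7a were among them. Cadherins and non-clustered protocadherins, the adhesion proteins of neighbouring cells, had 12 of 33 genes higher in mPFC and 7 higher in ACC, and 4 and 1 with the oligodendrocyte covariate. Cdh7 (0.79 ± 0.07 (SE), adjusted p = 1.46e-08), Pcdh11x (0.60) and Pcdh8 (0.50) were higher in mPFC in every animal, and Pcdh7 was higher in ACC in every animal (-0.52 ± 0.04).

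Receptors of neuropeptides had 15 of 39 genes higher in mPFC and 10 higher in ACC (17.8% and 18.6% over all genes). Besides Oxtr, the mPFC side held Npy2r, a presynaptic receptor of neuropeptide Y, at 2.69, 6.32 and 13.2 CPM against 2.102, 2.81 and 3.98 CPM (1.19 ± 0.11 (SE), adjusted p = 2.18e-08). It also held Prokr2, a prokineticin receptor (1.04 ± 0.13 (SE), adjusted p = 8.66e-07), and Tacr1, the substance P receptor (0.76 ± 0.08 (SE), adjusted p = 2.07e-07). All 3 were higher in mPFC in 21 of 21 animals. On the ACC side, Rxfp2, a receptor of insulin-like peptide 3, was 4.802-fold higher at low levels, 0.0949, 0.394 and 1.51 CPM in mPFC and 1.21, 1.94 and 4.005 CPM in ACC (-2.26 ± 0.17 (SE), adjusted p = 6.32e-10). Oprk1, the κ opioid receptor, and Hcrtr1, an orexin receptor, were higher in ACC (-1.20 ± 0.18 and -0.87 ± 0.13). With the oligodendrocyte covariate 4 and 2 of the family were called (3.85% and 3.73% over all genes), Npy2r, Prokr2, Oxtr, Tacr1, Rxfp2 and Hcrtr1, and Oprk1 was not (adjusted p = 0.19). Of 29 precursors of neuropeptides 9 were higher in mPFC and 5 in ACC, and 1 and 1 with that covariate. Penk, the enkephalin precursor, was the most abundant of those called on the mPFC side, at 18.8, 37.03 and 184 CPM against 14.4, 22.8 and 156 CPM (0.60 ± 0.19), and without the animals of high olfactory list level its value was 0.29 (adjusted p = 0.39).

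Receptors of the ascending neuromodulators were divided between the cortices. Among 12 serotonin receptors 4 were higher in mPFC and 4 in ACC (17.8% and 18.6% over all genes), and 1 and 2 with the oligodendrocyte covariate (3.85% and 3.73% over all genes). Htr1a, an inhibitory receptor, was at 22.2, 34.9 and 45.99 CPM in mPFC and 17.4, 23.03 and 31.01 CPM in ACC and higher in mPFC in 21 of 21 animals (0.62 ± 0.04 (SE), adjusted p = 3.56e-11). Htr2a, an excitatory receptor, was higher in ACC in 21 of 21 animals (-0.35 ± 0.04 (SE), adjusted p = 7.47e-07), and Htr1b (-0.36), Htr6 (-0.31) and Htr7 (-0.29) were on its side. Dopamine and adrenergic receptors had 3 of 14 genes called each way, close to the share over all genes, with Adra1b, Adra1d (-0.53 ± 0.10) and the D5 receptor Drd5 (-0.89 ± 0.12) higher in ACC. Drd1 and Drd2, the main dopamine receptors of striatal neurons, were not called (-0.26 and -0.23). Of 17 acetylcholine receptor genes 5 were higher in mPFC and 3 in ACC, and 0 and 0 with the oligodendrocyte covariate. Chrna5, an accessory nicotinic subunit of deep-layer neurons, was 2.23-fold higher in ACC, at 0.893, 3.28 and 6.92 CPM in mPFC and 2.66, 7.74 and 12.2 CPM in ACC (-1.16 ± 0.17 (SE), adjusted p = 9.50e-06), and 2 of 21 animals went the other way. With the covariate it was at -0.73 and not called (adjusted p = 0.21), and Adra1b was the only dopamine or adrenergic receptor called.

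GABA-A receptor subunits had 6 of 16 genes higher in mPFC and 4 in ACC (17.8% and 18.6% over all genes), with Gabra2, higher in mPFC, at 0.27 ± 0.03 (SE), adjusted p = 1.89e-08 and Gabra5, higher in ACC, at -0.21 ± 0.05. Glutamate receptors had 8 of 25 higher in mPFC and 7 in ACC. The kainate receptor subunits split, Grik2 being higher in mPFC in every animal (0.35 ± 0.03 (SE), adjusted p = 6.22e-09) and Grik4 lower (-0.51 ± 0.08 (SE), adjusted p = 1.14e-05). Gria2, the AMPA subunit that limits calcium entry, was 1.16-fold higher in mPFC in every animal. Of 68 potassium channel genes 21 were higher in mPFC and 20 in ACC, and Kcna5 had the largest difference of those with a median above 1 CPM, at 2.802, 5.48 and 10.4 CPM in mPFC and 1.096, 2.57 and 5.39 CPM in ACC (1.06 ± 0.10 (SE), adjusted p = 1.59e-08). Kcnk4, a mechanically gated background channel, was lower in mPFC in 21 of 21 animals (-0.53 ± 0.08). Perineuronal net genes had 2 of 14 called in mPFC and 4 in ACC, among them Hapln4, a link protein (-0.37 ± 0.04 (SE), adjusted p = 4.54e-07). Counts with the oligodendrocyte covariate (3.85% and 3.73% over all genes) were 2 and 1 for GABA-A subunits, 3 and 0 for glutamate receptors, 5 and 5 for potassium channels and 1 and 1 for perineuronal nets, and Grik4 lost its call (adjusted p = 0.0693).

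The glucocorticoid receptor system, the pathway in which the inhibited protein acts, differed by small amounts, with 3 of 16 genes higher in mPFC and 6 higher in ACC (17.8% and 18.6% over all genes). Fkbp5, which encodes FKBP51, stood at 19.4, 24.5 and 30.2 CPM in mPFC and 19.3, 21.5 and 26.1 CPM in ACC, a log2 fold change of 0.14 ± 0.04 (SE), adjusted p = 0.00437, and it was higher in mPFC in 15 of 21 animals. Without the animals of high olfactory list level its call was lost (adjusted p = 0.17). Tsc22d3 was, with the oligodendrocyte covariate, the only one of the 16 called, and Fkbp5 and Nr3c2 were not (adjusted p = 0.41 and 0.26). The receptor gene Nr3c1 gave 0.05 (adjusted p = 0.0592) and the mineralocorticoid receptor Nr3c2 gave 0.20 (adjusted p = 0.00745). Tsc22d3 (GILZ), a target of the receptor, was lower in mPFC in 21 of 21 animals at -0.17 ± 0.02. Immediate early genes had 2 of 15 called in mPFC and 3 in ACC, with Btg2 at 0.50 and Egr3 at -0.24, and Fos at 0.23 (adjusted p = 0.0549).

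For the remaining cell type lists, the counts higher in mPFC and in ACC were 2 and 1 of 11 for astrocytes, 4 and 1 of 11 for microglia, 0 and 1 of 15 for vessel cells and 0 and 0 of 11 for meningeal fibroblasts. They were 0 and 3 of 5 for red blood cells, 2 and 4 of 9 for choroid plexus and ependyma, 1 and 2 of 7 for thalamic and 0 and 0 of 5 for septal neurons, where 17.8% and 18.6% of all genes were called. Layer 5 extratelencephalic neurons had 1 and 2 of 9. S100b, which glia of both the astrocyte and the oligodendrocyte lineage express, had the largest astrocyte value (-0.34 ± 0.04, higher in ACC). Mitochondrially encoded genes were called higher in mPFC for 8 of 13 and higher in ACC for 1, with a median of 0.08, and ribosomal protein genes for 4 and 17 of 80, with a median of -0.01. These small shifts move with region beside every list above, and their part in the results was not tested. In the 12 animals without a high olfactory list level the lists of vessel cells, red blood cells, immediate early genes and meningeal fibroblasts had 6 of 15, 5 of 5, 6 of 15 and 4 of 11 genes called higher in ACC. In that fit 13.2% of all genes were called higher in ACC.

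The 20 animals killed after a social encounter of 10 min (6 Ctrl_Veh, 7 ELA_Veh and 7 ELA_SAFit2) gave the same comparison in other individuals. Their mPFC and ACC libraries called 2401 genes higher in mPFC (15.3%) and 2497 higher in ACC (15.9%). Of the 2829 genes higher in mPFC here, 1869 were called in the same direction there, which is 66.1% of these genes and 77.8% of theirs. For ACC, 2053 genes were shared, 69.4% of the genes here and 82.2% of theirs. All 24 named genes were called again in the same direction. Pappa2 had a log2 fold change of -2.80, Met of -1.46, Itga4 of 1.11, Oxtr of 0.97 and Adra1b of -0.85 in those animals, against -2.75, -1.50, 1.13, 0.97 and -0.85 here. All 14 oligodendrocyte genes were again higher in ACC, and all 10 olfactory bulb genes were higher in mPFC.

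**Figure D4:**
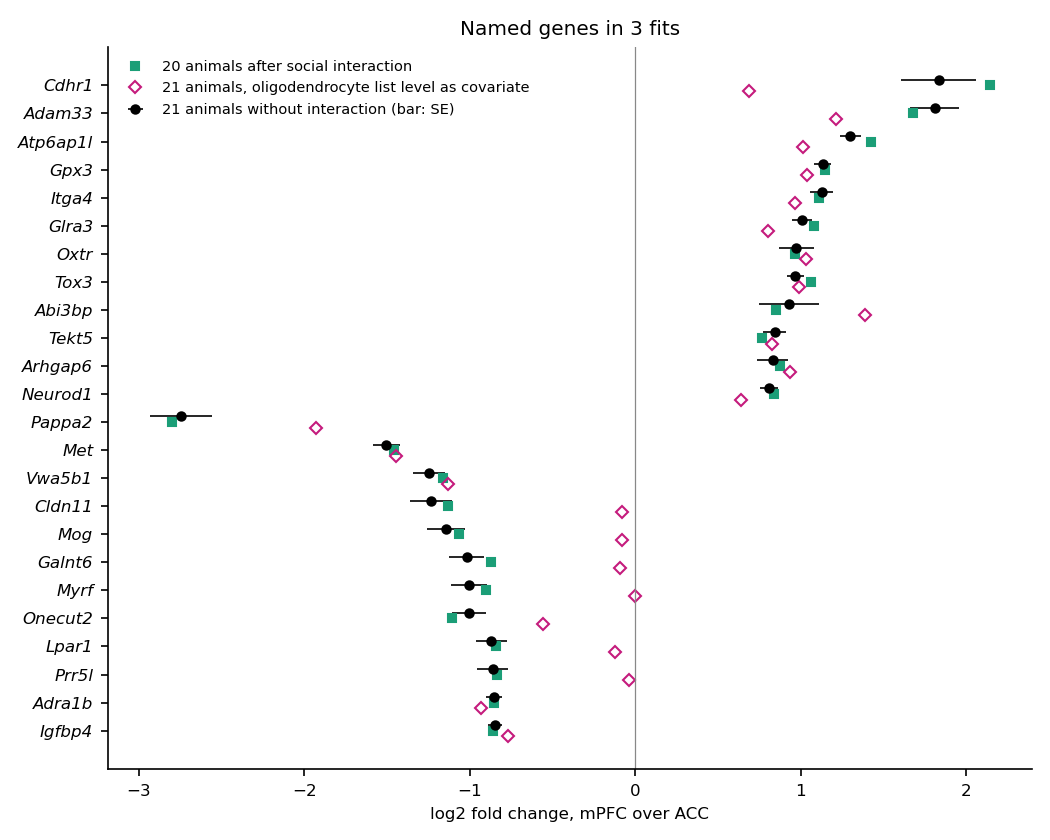
Log2 fold change of mPFC over ACC for the 24 named genes in the 21 animals without an encounter (black, with SE), in the 20 animals after one (green) and in the 21 animals with the oligodendrocyte list as a covariate (pink). Green lies closest to black for Adra1b and farthest for Cdhr1 (2.14 against 1.83), and pink lies near 0 for Cldn11, Mog, Galnt6, Myrf, Lpar1 and Prr5l but not for Met (-1.45) or Adra1b (-0.93).

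Whether rearing or SAFit2 changed the distance between the cortices was tested with an interaction of region and condition over the 21 animals. By the study's methods, rearing and the gel were given by litter. Litters were not used here, so any siblings within a condition were counted as independent animals. No gene passed an adjusted p of 0.05 (0%). An unadjusted p under 0.05 was reached by 970 of 15863 genes (6.1%) in edgeR and by 678 (4.3%) in DESeq2, which also called 0. The smallest p-values belonged to Anapc13, a subunit of the anaphase-promoting complex, Rgs10, a regulator of G-protein signalling, and Slit1, a guidance ligand, with adjusted p of 0.29, 0.29 and 0.80 (edgeR). Within animals, Anapc13 differed by 0.09 ± 0.09 (SD, n = 7) in Ctrl_Veh, -0.22 ± 0.06 in ELA_Veh and -0.04 ± 0.09 in ELA_SAFit2 on the log2 scale. Rgs10 differed by 0.38 ± 0.14, -0.03 ± 0.15 and 0.02 ± 0.13 in the same order. Among the named genes, Pappa2 differed by -3.22 ± 0.92 in Ctrl_Veh, -2.13 ± 0.81 in ELA_Veh and -3.03 ± 0.63 in ELA_SAFit2 (interaction adjusted p = 0.80, edgeR). Oxtr gave 1.02 ± 0.46, 0.75 ± 0.58 and 1.08 ± 0.54 (adjusted p = 0.90), and Igfbp4 gave -0.95 ± 0.21, -0.77 ± 0.22 and -0.82 ± 0.16 (adjusted p = 0.84). Fitted alone, each condition of 7 animals called fewer genes: 1149 and 1350 (mPFC and ACC) in Ctrl_Veh, 897 and 1179 in ELA_SAFit2 and 264 and 232 in ELA_Veh. These counts were not compared by a test. By the mean signed difference over 292 genes, the 2 libraries differed least in ELA_Veh animal 99 (0.12). Next came animals 13 (0.48), 69 (0.49) and 5 (0.53), also of ELA_Veh. The remaining ELA_Veh animals lay higher, up to 0.93 in animal 43, the highest of all 21 animals. Whether this difference varied with condition was not tested.

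**Figure D5:**
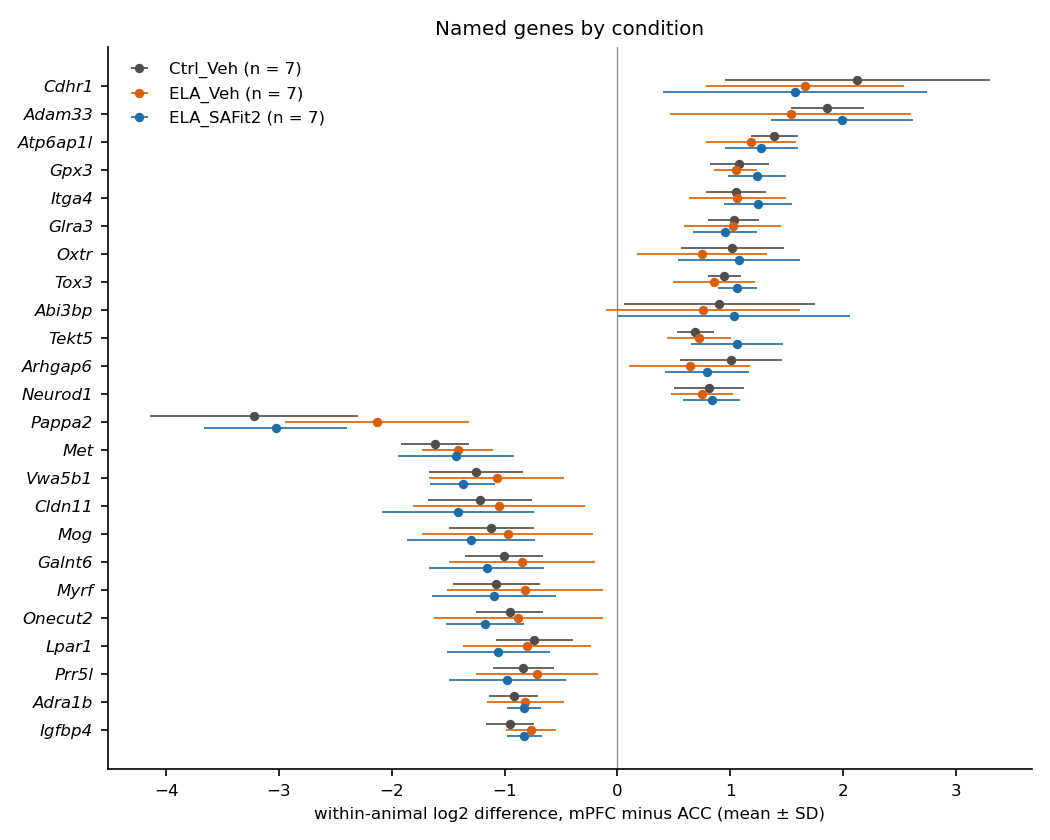
Mean and SD of the within-animal log2 difference between mPFC and ACC for the 24 named genes in each condition (7 animals each). The 3 means of a gene share their sign for all 24 genes, which the rule for naming them fixed in advance. ELA_Veh has the widest bars for Cldn11, Mog, Galnt6, Myrf, Lpar1 and Prr5l, for example 0.76 (SD) for Mog against 0.38 in Ctrl_Veh.

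The 4 other sampled regions of the same animals show where these genes stand in the wider brain, with medians of CPM after all 126 libraries were scaled together. Of the 12 genes higher in mPFC, 3 (Cdhr1, Adam33 and Atp6ap1l) had their highest median of the 6 regions in mPFC, and the other 9 had it in a region outside these cortices. Glra3 and Oxtr peaked in the basolateral amygdala (35.9 and 18.96 CPM), Itga4 and Neurod1 in the ventral hippocampus (46.7 and 38.1 CPM) and Tox3 in the dorsomedial thalamus (40.6 CPM). Of the 12 genes higher in ACC, 3 (Pappa2, Met and Igfbp4) had their highest median in ACC. Pappa2 was 10.8 CPM in ACC and 8.58 CPM in the amygdala, and Met was 11.5 CPM in ACC with no other region above 4.28 CPM. The myelin genes Cldn11, Mog and Myrf were highest in thalamus and lowest in mPFC, where the ACC medians (92.9, 35.8 and 43.5 CPM) were close to those of the shell of the nucleus accumbens (85.4, 34.8 and 47.7 CPM). No test was made across these regions.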

How the data were processed

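The 42 libraries of mPFC and ACC from the 21 animals without a social encounter were compared. Per the labels and the study's methods, poly-A RNA was made into stranded libraries and sequenced in pairs of reads. The processing notes name STAR, DESeq2 and GRCm39 (mm39), with no version. The authors deposited estimated counts per gene for 246 libraries, in a table of salmon output. Of the values, 12.12% were not whole, and all were rounded to whole numbers here. Depth was 23264116 to 39360386 counts per library, with a median of 30154209, and precision was limited by the 21 animals.

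Of 56691 gene identifiers, 52073 were typed by GENCODE M21 and 978 by RefSeq symbol, 3640 were left out, and 21915 were protein-coding. Of these, 15863 were tested, each summing to 100 counts or more over the libraries and present in 6 or more. The estimated counts deposited by the authors were fitted with edgeR 4.0.16 (TMM, quasi-likelihood test, two-sided) in R 4.3.3, with the animal as a block and Benjamini-Hochberg adjustment over all genes tested, where the study used DESeq2. Animal numbers are shared between regions in the labels. The deviations of an animal's 2 libraries correlated by 0.18 to 0.67 (median 0.42) in 21 pairs, against a median of -0.03 between different animals, and 16 of 21 mPFC libraries correlated best with their own number. On simulated counts for 15863 genes, 99% of changes of 0.5 and 100% of changes of 1 (log2) between regions were recovered with 11 false calls. When only the mPFC and ACC difference of ELA_Veh animals was changed, 75% and 95% were recovered by the interaction test with 6 false calls. The changed genes had a mean of at least 1 CPM and the spread was that of the fitted model, so genes of lower level were not covered.

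Named genes were the 12 with the largest difference on each side among called genes with a mean of at least 5 CPM and 1 direction in 21 animals, the members of 39 gene lists, and, since no gene was called for the interaction, those with its smallest p. CPM are from edgeR, and list levels are means of log2(CPM + 0.1). The lists and the comparison were chosen with earlier results of these data known. Alternatives were DESeq2 1.42.0, RLE size factors, other filters, no block, leaving out each animal, each condition alone, the 20 animals after an encounter and list levels as covariates. Leaving out animals of high olfactory or striatal list level, and the covariates of all 3 lists together, were chosen after seeing the data. Figures were drawn with matplotlib 3.10.9.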

Additional observations from a re-analysis of the deposited data

Results flagged for a closer look

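Within-animal differences (mPFC minus ACC, log2) of the 24 named genes and of 3 marker lists were searched in each condition for an animal far from the other 6. The gap to the nearest animal exceeded the 95% limit in 7 of 81 groups, and chance gives about 1 in 20. In ELA_SAFit2, animal 71 stood at 3.98 for Cdhr1, where the next animal was at 1.89, and at 3.57 for the olfactory bulb list, where the next was at 0.666. The same animal had the smallest Met difference, -0.375, against -1.23 for the next. ELA_SAFit2 animal 15 had a Cldn11 difference of -0.053, against -1.14 for the next. In ELA_Veh, animal 43 stood at 2.60 for Abi3bp (next 0.992) and at 1.36 for Tekt5 (next 0.669), and animal 99 at 0.363 for Atp6ap1l (next 1.10). The causes of these values were not tested.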

How the results depend on the processing

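Among all 24 named genes, direction and call held with DESeq2, RLE size factors, both other filters, no block, the striatal and the olfactory covariate, the animals after an encounter and each of the 21 animals left out in turn. These genes were chosen for 1 direction in all 21 animals, so their direction in fits of these animals without covariates was largely set by that choice. In ELA_Veh alone Abi3bp, Arhgap6, Myrf and Onecut2 lost their call, 8 genes lost it with the oligodendrocyte covariate, and with the covariates of all 3 lists 9 lost it and 1 reversed. Counts are given as higher in mPFC and higher in ACC. With no replicate block (unpaired by animal) they were 2144 and 2317, against 2829 and 2957 paired. Leaving out 1 animal gave 2751 to 3069 and 2439 to 3024 genes, and 76 to 96 and 72 to 97 of at least 2-fold. Counts fell to 1149 and 1350 in Ctrl_Veh alone, 897 and 1179 in ELA_SAFit2 alone, 264 and 232 in ELA_Veh alone, 610 and 592 with the oligodendrocyte covariate and 320 and 240 with the covariates of all 3 lists. Without the 9 animals of high olfactory list level 1755 were higher in mPFC, and without the 9 of high striatal list level 1681 and 1716. Of at least 2-fold genes, 16 and 38 were left with at least 1 CPM in 21 libraries, 16 and 24 in ELA_Veh alone, 38 and 17 with the oligodendrocyte covariate and 19 and 25 with all 3. On the mPFC side 50 were left in ELA_SAFit2 alone, 54 with the olfactory covariate and 32 without animals of high olfactory list level, and on the ACC side 57 in Ctrl_Veh alone. With all 3 covariates Myrf turned to 0.003505 (adjusted p = 0.98). Interaction calls were 0 in every alternative run, but the share of genes at an unadjusted p under 0.05 varied (edgeR). It ran from 1.8% with no block to 10.07% without ELA_Veh animal 43. Without the animals of high striatal list level it was 8.02%, with a smallest adjusted p of 0.0925. Fewer animals enter several of these fits, and the covariates differ between regions. The causes of the other changes were not tested. The library series of the 2 regions cannot be told apart from region.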
